A study of Mus musculus with 24 samples.

Results

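The hippocampus of adult male mice without Kdm5c (KO) was compared with that of wild-type (WT) mice, both untreated, in 6 of the series' 18 RNA sequencing libraries. The members were all libraries labelled untreated with either genotype, 3 KO and 3 WT. The KO mice are labelled Kdm5c -/-, and since the gene is X-linked the breeding text calls the males Kdm5c-/y. The null allele was present in every cell throughout life, and the line was kept on a mixed C57 and 129 background. All mice were 2 to 4 months old, and each library was made from hippocampal tissue pooled from 3 mice. The other 12 libraries served as a background to this comparison. Among them, 3 KO and 3 WT libraries followed 1 h in a box with tubing and toys (novelty). The remaining 6 came from an inducible line on a C57BL/6J background, 3 of them from mice that carry a floxed Kdm5c and a CaMKIIα-creERT2 transgene (ifKO), in which the promoter confines the recombinase to excitatory forebrain neurons, and 3 from control mice. The comparison asks which genes differ in level at rest when Kdm5c has been missing from the outset.

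Kdm5c encodes a demethylase that removes methyl groups from lysine 4 of histone H3, a mark of active promoters and enhancers. The enzyme is found at promoters in complexes with other repressors, and mutations of the human gene cause an X-linked form of intellectual disability. In brain it is best known for keeping genes of the germline silent, where it acts beside PRC1.6, a Polycomb complex that binds DNA through E2F6 and the MGA and MAX pair, and beside DNA methylation.

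The 3 KO libraries held 45.6, 22 and 29.5 M counts in genes and the 3 WT libraries 16, 21.9 and 23.4 M. The first principal component of the 6 libraries carried 44.2% of the variance and separated the genotypes, with KO libraries at -18.78 to -9.95 and WT libraries at 7.65 to 18.64. KO library 2 stood apart in markers of the choroid plexus, the epithelium that secretes cerebrospinal fluid, at a mean of 3.51 log2 CPM against 1.66 and 1.36 in KO libraries 1 and 3 and 1.11 to 1.54 in WT. CPM are counts per M counts in genes after scaling between libraries. Kdm5c itself stood at 75.8, 76.3 and 75.4 CPM in KO and at 75.4, 74.2 and 76.4 CPM in WT. Counts were made over the whole gene, in which missing exons need not show, and these values therefore test neither genotype nor deletion.

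At rest the loss of Kdm5c went mainly with higher levels. Of 16392 genes tested, 178 were higher in KO (1.09%) and 26 lower (0.159%) at an adjusted p under 0.05 by edgeR's quasi-likelihood test. The count depends on the libraries in the fit: without WT novelty library 1 and KO novelty library 2 it was 323 higher and 92 lower. The median of all tested genes was 0.00 on the log2 scale. Since each library is a pool of mice, p-values and errors describe how pools vary, and not how mice vary. The typical rise was 2.06-fold (median over the 178 genes) and 30 genes rose by over 4-fold, while the typical fall was 1.68-fold and 2 genes fell by over 4-fold. Summed over each group's libraries, the 178 genes made up 0.505% of the counts in KO libraries and 0.300% in WT libraries, and the 26 lower genes 0.0633% in KO libraries and 0.0872% in WT libraries. In bulk tissue fewer cells of a type and less RNA per cell cannot be told apart, which holds for every level given here.

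The genes that rose were mostly ones that the hippocampus reads at a low or middling level. Over the 6 libraries their median level was 7.67 CPM, that of the lower genes was 8.24 CPM and that of all tested genes 18.8 CPM. By mean level, 84 of 4385 genes between 1 and 10 CPM rose (1.92%), 68 of 7780 between 10 and 100 CPM (0.874%) and 7 of 2314 above 100 CPM (0.303%). Under 1 CPM 19 of 1913 rose (0.993%), and the size of a called rise was greatest there, with a median of 2.75 on the log2 scale against 0.64 above 100 CPM, where smaller changes can pass the test.

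**Figure D1:**
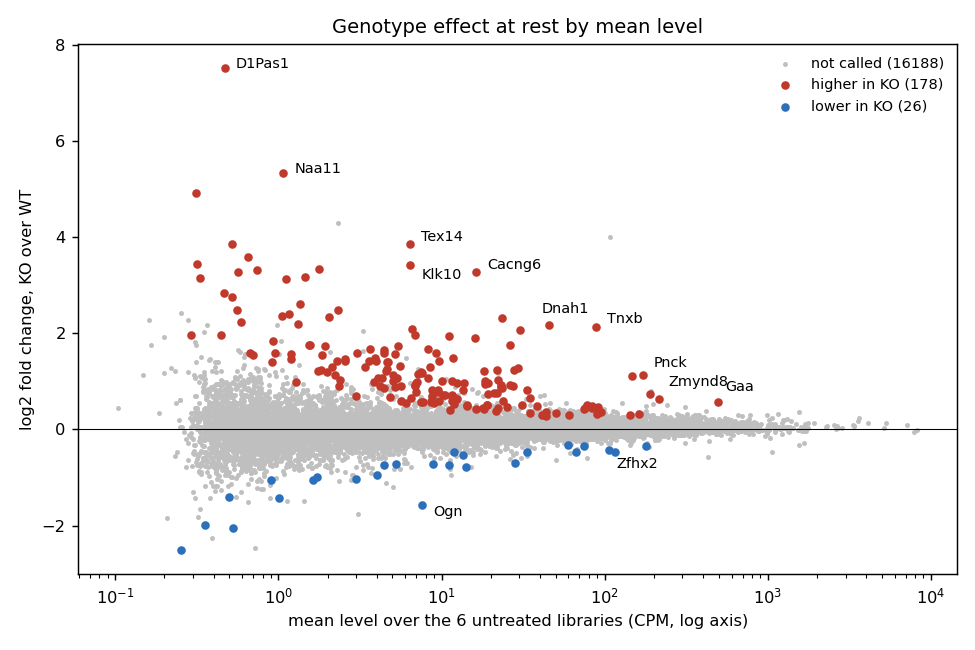
Log2 fold change of untreated KO over WT (vertical axis) against the mean level over the 6 untreated libraries in CPM (log axis) for all 16392 tested genes. The 178 red points reach high values at low levels, the 26 blue points stay nearer to 0, and the value of D1Pas1, which had no count in WT, depends on the prior count of the fit.

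**Figure D2:**
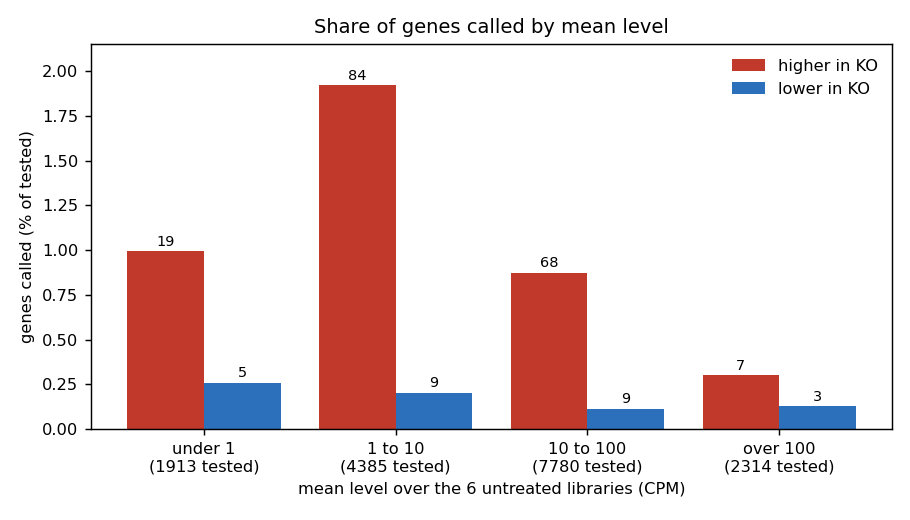
Share of tested genes called higher or lower in KO (vertical axis, percent) by mean level over the 6 untreated libraries (CPM classes), with the number of called genes above each bar. The share called higher is 1.92% at 1 to 10 CPM and 0.303% above 100 CPM.

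Genes of the germline were among those with the largest rises, beside noncoding RNAs such as Gm14486 (log2 fold change 4.91) and the peptidase gene Klk10 (3.43). Of 131 listed genes of meiosis, germ cell RNA and sperm with a row in the files, 60 passed the filter on low counts. Of these 11 rose and none fell, where 1.09% of all tested genes rose and 0.159% fell. The other 71 listed genes were too low to be tested, and a gene that passes the filter through KO alone had to differ, so the count describes these members and nothing more. Tex14, which builds the bridges between dividing germ cells (chromosome 11, 87405065 to 87555823), had 12.5, 10.5 and 12.9 CPM in KO against 0.555, 0.845 and 1.01 CPM in WT. The lowest KO library stood at 10.5 CPM and the highest WT library at 1.01 CPM, and the log2 fold change was 3.85 ± 0.16 (SE, n = 3 per group, adjusted p = 1.53e-08).

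Several germline genes were close to silent in WT. Naa11, a testis relative of the acetyltransferase subunit Naa10, had 139, 39 and 42 counts in KO against 2, 1 and 0 in WT. That is a ratio of 47.3 per M counts, with a 95% counting interval of 16.0 to 231. D1Pas1, a testis RNA helicase without introns that is close in sequence to Ddx3x, had 42, 27 and 19 counts in KO and none in WT, and was at least 18.9-fold higher with a floor of 3 counts over the WT group. The interval and the floor account for counting error alone. Stk31, a germ cell protein with Tudor and kinase domains, had 1.03, 1.66 and 1.39 CPM in KO against 0.123, 0.0445 and 0.210 CPM in WT. Cyct, the testis form of cytochrome c, averaged 1.02 ± 0.478 CPM in KO and 0.104 ± 0.0724 CPM in WT (SD, n = 3 each), and Adad2, an RNA-binding protein of spermatocytes, 0.594 ± 0.148 CPM in KO and 0.0634 ± 0.0198 CPM in WT. In all 5 genes no WT library reached the lowest KO library. Unlike the others, Adad2 did not pass the test in every fit that left out a library. Naa11, D1Pas1 and Cyct have close relatives that the hippocampus expresses, and how the counting shared reads between such copies was not tested.

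The other 5 germline genes that rose did so by smaller factors. Rnf17, a Tudor protein of germ cell granules, had 3.37, 4.53 and 4.03 CPM in KO against 0.370, 0.489 and 1.13 CPM in WT (log2 fold change 2.49 ± 0.33, adjusted p = 0.00106). Hsf2bp, a meiotic partner of BRCA2, averaged 1.95 ± 0.264 CPM in KO and 0.361 ± 0.0878 CPM in WT, and Ccnb1ip1, which designates crossovers, 2.16 ± 0.454 CPM in KO and 0.459 ± 0.0766 CPM in WT. Sycp3, a structural protein of the synaptonemal complex, had 3.50, 2.45 and 3.08 CPM in KO against 1.05, 1.60 and 1.05 CPM in WT (1.29 ± 0.24, adjusted p = 0.0124). Ddx4, the vasa helicase that marks germ cells, averaged 9.14 ± 1.79 CPM in KO and 4.71 ± 0.611 CPM in WT (0.97 ± 0.20, adjusted p = 0.0301). These last 2 calls rest on the full set of libraries: that of Sycp3 ended without KO library 1, WT library 1 or WT library 3 (adjusted p up to 0.0850), and that of Ddx4 without any of 5 libraries, KO library 3 being the exception (adjusted p up to 0.193 over the alternatives).

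Other germline genes that the hippocampus reads at a like level were not called. Dazl, an RNA-binding protein that germ cells need, had 3.69, 5.27 and 3.79 CPM in KO against 4.56, 3.60 and 4.70 CPM in WT. Sycp2, which pairs with Sycp3 in the synaptonemal complex, had 3.74, 3.42 and 3.11 CPM in KO against 2.65, 2.27 and 2.73 CPM in WT, and was not called (0.43 ± 0.29, adjusted p = 0.768). The medians of the meiotic, germ cell RNA and testis lists were 0.19, 0.07 and 0.21 on the log2 scale, with 3 of 25, 3 of 20 and 5 of 15 tested members higher. Without an overlap between the groups, KO was above WT for 24 of the 60 tested germline genes and below it for 1, where over all tested genes these shares were 11.6% and 9.35%. A gene that passes the filter through KO alone tends to lie above WT. The contrast is therefore in part fixed in advance and describes these members only.

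Promoter sequence was read for the germline genes because PRC1.6 is known to bind E-boxes (CACGTG, through MGA and MAX) and the E2F site TTCCCGC (through E2F6). The windows, from RefSeq with build GRCm38.p6, run from 250 bases before to 50 bases after the start site, and both strands were searched. For the 5 genes printed first the RefSeq start lies up to 165 bases from the GENCODE one. For Hsf2bp and Ccnb1ip1 it lies 1841 and 12004 bases downstream, so their windows, counted below, do not hold the GENCODE start. The 11 windows of the germline genes that rose came from 10 genes, since Rnf17 had none. Stk31 had RefSeq starts at 49395539 and 49395604. Its windows overlap and the same E-box lies in both, so it is counted for each. Of the 11 windows, 5 (45.5%) held CACGTG and 5 (45.5%) TTCCCGC, against 9.45% and 7.58% of 15325 windows of all tested genes. The windows of germline genes that were tested and not called held them in 15.8% and 12.3% of 57 cases, and those of the other higher genes in 10.2% and 1.8% of 167. Printed below are a meiotic gene, a germ cell helicase and a testis kinase with an E-box, followed by the pair of testis genes with the E2F site and large rises. Capitals mark CACGTG and TTCCCGC, or its complement GCGGGAA, which do not overlap in these windows.

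Sycp3 (chr10:88459337-88459636, plus strand): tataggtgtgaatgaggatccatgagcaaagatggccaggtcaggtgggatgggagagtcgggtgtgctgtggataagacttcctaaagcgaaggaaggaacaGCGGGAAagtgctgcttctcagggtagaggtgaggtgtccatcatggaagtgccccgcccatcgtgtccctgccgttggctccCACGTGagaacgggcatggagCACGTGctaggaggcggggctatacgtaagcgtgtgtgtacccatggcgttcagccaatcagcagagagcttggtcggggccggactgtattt
Ddx4 (chr13:112652261-112652560, minus strand): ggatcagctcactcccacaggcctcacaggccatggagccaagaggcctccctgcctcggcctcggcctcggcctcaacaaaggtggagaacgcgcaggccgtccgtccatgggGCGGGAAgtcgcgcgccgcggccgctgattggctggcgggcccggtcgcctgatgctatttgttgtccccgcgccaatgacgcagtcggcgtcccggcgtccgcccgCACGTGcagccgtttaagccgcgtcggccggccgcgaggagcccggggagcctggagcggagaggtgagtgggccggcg
Stk31 (chr6:49395289-49395588, plus strand): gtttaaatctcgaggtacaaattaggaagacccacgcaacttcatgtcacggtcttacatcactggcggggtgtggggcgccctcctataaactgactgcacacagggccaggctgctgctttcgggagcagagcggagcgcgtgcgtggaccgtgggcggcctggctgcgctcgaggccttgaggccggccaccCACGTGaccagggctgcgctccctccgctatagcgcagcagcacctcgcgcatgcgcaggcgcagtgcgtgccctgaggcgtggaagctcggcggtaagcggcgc
Tex14 (chr11:87404815-87405114, plus strand): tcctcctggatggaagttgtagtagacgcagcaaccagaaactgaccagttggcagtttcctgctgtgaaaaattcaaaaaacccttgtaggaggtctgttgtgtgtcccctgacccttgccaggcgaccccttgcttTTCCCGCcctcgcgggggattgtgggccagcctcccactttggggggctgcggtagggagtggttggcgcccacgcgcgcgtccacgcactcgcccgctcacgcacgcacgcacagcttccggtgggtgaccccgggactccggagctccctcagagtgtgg
Naa11 (chr5:97392281-97392580, minus strand): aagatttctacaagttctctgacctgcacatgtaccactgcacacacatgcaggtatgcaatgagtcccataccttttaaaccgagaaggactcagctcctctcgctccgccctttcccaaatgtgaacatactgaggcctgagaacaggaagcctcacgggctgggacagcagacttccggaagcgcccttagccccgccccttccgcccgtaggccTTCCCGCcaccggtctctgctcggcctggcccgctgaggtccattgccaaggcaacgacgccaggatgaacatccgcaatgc

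Sycp3 held 2 E-boxes, the farther of them 64 bases before the start site, and an E2F site 147 bases before it, and Ddx4 an E-box 29 and an E2F site 136 bases before it. In Tex14 and Naa11 the E2F site lay 112 and 32 bases before the start and no E-box was in the window, while Stk31 held an E-box 55 bases before it and no E2F site. These distances are from the RefSeq start, which for Naa11 and Ddx4 lies 49 and 165 bases downstream of the GENCODE start. The Naa11 site and both Ddx4 sites therefore lie after the GENCODE start and not before it. A match describes these letters only, and a window without one says nothing of the factors. The higher genes outside the germline lists differed from these in base composition. Their windows had a median observed over expected CpG ratio of 0.353, against 0.686 for the germline genes that rose, 0.646 for the lower genes and 0.719 for all tested genes.

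In the lists of calcium channel subunits and of calmodulin-dependent kinases, 1 member each was called higher. Over all tested genes 1.09% rose and 0.159% fell. Cacng6, a gamma subunit of voltage-gated calcium channels (chromosome 7, 3424195 to 3435667), had 31.0, 29.2 and 28.1 CPM in KO against 3.33, 2.98 and 2.90 CPM in WT. The replicates lay within 3 CPM of each other in KO and the log2 fold change was 3.27 ± 0.10 (adjusted p = 3.49e-10). It was the one member called of 24 tested calcium channel subunits, whose median was 0.06. Cacna1e, a pore-forming subunit of the hippocampus, had 613, 656 and 608 CPM in KO against 578, 483 and 577 CPM in WT (0.20 ± 0.15, adjusted p = 0.803). Pnck, a calcium and calmodulin-dependent kinase of the CaMKI family (chromosome X, 73655994 to 73660117), had 235, 232 and 238 CPM in KO against 93.6, 119 and 108 CPM in WT. It was likewise the one member called of 20 kinases and partners (1.14 ± 0.10, adjusted p = 1.53e-05), and Camk2a, the dominant kinase of the class, had 5461, 5455 and 5820 CPM in KO against 5114, 5090 and 5055 CPM in WT (0.13 ± 0.07, adjusted p = 0.627). Per kilobase of exon, the level of Pnck was 119 RPKM in KO and 54.2 RPKM in WT, and that of Cacng6 was 14.9 RPKM in KO and 1.55 RPKM in WT.

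A few abundant genes of other classes rose by smaller factors and with little spread. Zmynd8, a chromatin reader that has been found in complex with KDM5C, had 263, 260 and 264 CPM in KO against 170, 174 and 162 CPM in WT (0.64 ± 0.07, adjusted p = 1.19e-04). Gaa, the lysosomal enzyme that breaks down glycogen, had 583, 595 and 588 CPM in KO against 356, 439 and 395 CPM in WT (0.57 ± 0.09, adjusted p = 0.00485). Both genes had a narrower range in KO than in WT. The noncoding RNA 2900052N01Rik had 196, 214 and 197 CPM in KO against 99.8, 83.8 and 96.5 CPM in WT (1.11 ± 0.12). Zfp532, a zinc finger protein, averaged 106 ± 3.88 CPM in KO and 76.7 ± 3.07 CPM in WT. Zmynd8 and 2900052N01Rik passed the test without any single library, as did Gaa and Zfp532, which were lost in a test against a fold change of 1.2.

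**Figure D3:**
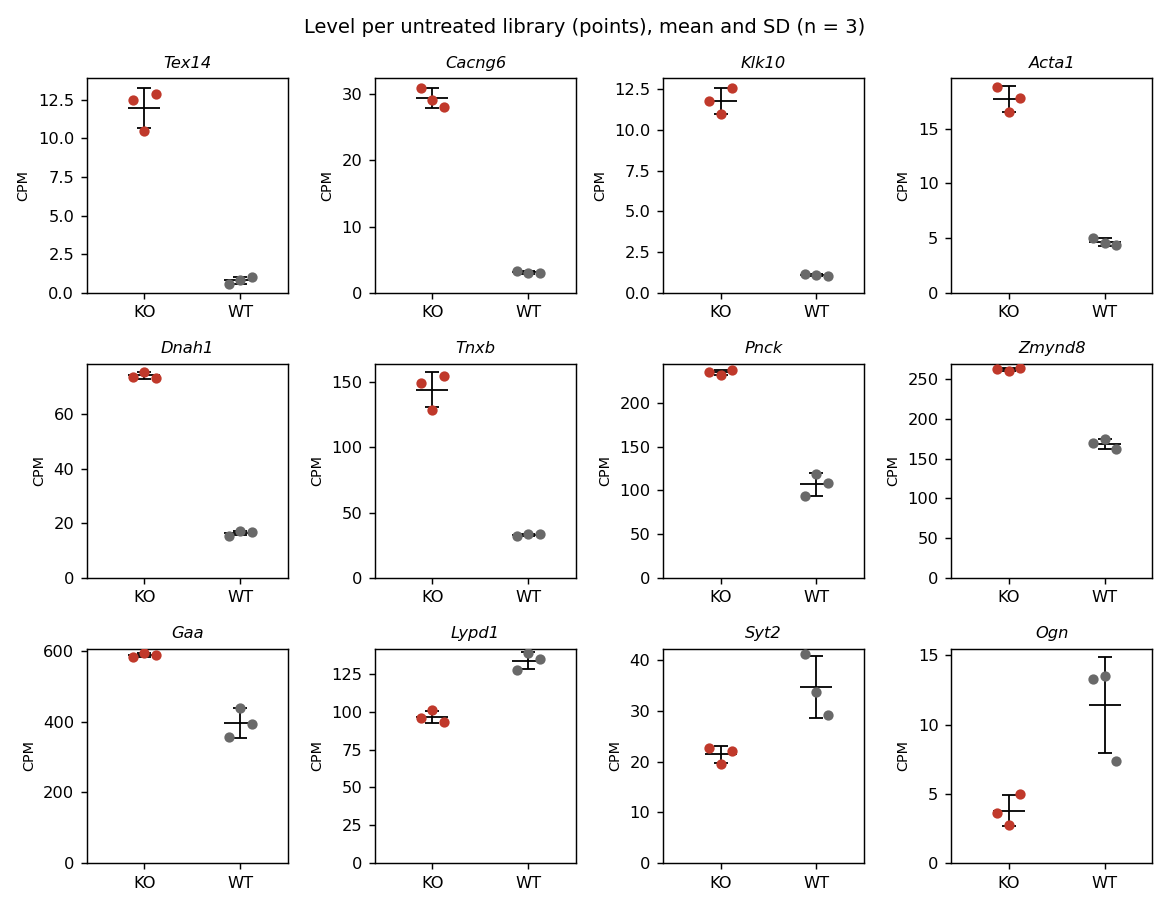
Level in CPM (vertical axes from 0, 1 panel a gene) in the 3 KO libraries (red, left) and the 3 WT libraries (grey, right), with the mean and SD (n = 3) as black bars. In the 9 genes that rose and the 3 that fell (Lypd1, Syt2 and Ogn) the groups do not overlap, and the spread of Ogn in WT runs from 7.39 to 13.5 CPM.

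Single genes better known from muscle, motile cilia and extracellular matrix rose. Acta1, the alpha actin of skeletal muscle, had 18.8, 16.5 and 17.8 CPM in KO against 4.99, 4.54 and 4.33 CPM in WT (1.95 ± 0.13). Actins are close in sequence, so reads of Acta1 may be shared with the other actins. Ryr1, the calcium release channel of skeletal muscle, averaged 87.2 ± 4.40 CPM in KO and 63.8 ± 5.92 CPM in WT (0.45 ± 0.10, adjusted p = 0.0495), and Myh7b, a slow myosin, 16.8 ± 0.606 CPM in KO and 11.9 ± 0.920 CPM in WT. Neither Ryr1 nor Myh7b passed the test in every fit that left out a library. Parvg and Parvb, listed with muscle but widely expressed, are parvins that tie integrins to actin. Parvg had 43.3, 40.2 and 41.4 CPM in KO against 17.3, 16.2 and 17.8 CPM in WT (1.28 ± 0.08), and Parvb averaged 42.8 ± 2.73 CPM in KO and 27.2 ± 2.19 CPM in WT. Of 35 tested muscle genes, of 60 listed, 6 rose and none fell, where 1.09% of all tested genes rose and 0.159% fell, and the median was 0.07. Parvg and Parvb are among the 6, and the lists were chosen with earlier results known, so the count describes these members only.

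Dnah1, an inner arm dynein of sperm tails and motile cilia (chromosome 14, 31260375 to 31323896), had 73.7, 75.5 and 73.3 CPM in KO against 15.4, 17.0 and 16.8 CPM in WT (2.17 ± 0.10, adjusted p = 3.44e-08). Among 41 tested genes of motile cilia it alone was called, where 1.09% of all tested genes rose, and the list median was 0.13. Foxj1, the master regulator of motile cilia, had 4.76, 4.11 and 4.47 CPM in KO against 3.64, 3.69 and 3.15 CPM in WT (0.36 ± 0.13, adjusted p = 0.375). Tnxb, the matrix glycoprotein tenascin X (chromosome 17, 34670535 to 34719815), had 149, 129 and 155 CPM in KO against 32.1, 33.2 and 33.2 CPM in WT (2.13 ± 0.12). The groups were far apart, with the lowest KO library at 129 CPM and the highest WT library at 33.2 CPM.

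Of 20 tested kallikreins, clotting proteases and serpins, with a median of 0.16, 3 secreted proteins rose and none fell. Over all tested genes 1.09% rose and 0.159% fell. Klk10, a kallikrein-related peptidase (chromosome 7, 43781035 to 43785410), had 11.8, 11.0 and 12.6 CPM in KO against 1.17, 1.11 and 1.01 CPM in WT (3.43 ± 0.15, adjusted p = 1.53e-08). Its neighbour in the cluster Klk9 had 0.481, 0.277 and 0.541 CPM in KO against 0, 0.178 and 0.0420 CPM in WT and was not called (adjusted p = 0.249), and Klk8, the kallikrein of hippocampal neurons, was not called (log2 fold change -0.11 ± 0.08). F9, the clotting factor IX of liver, averaged 1.75 ± 0.187 CPM in KO and 0.351 ± 0.124 CPM in WT. Serpina3n, a protease inhibitor of reactive astrocytes, had 176, 180 and 182 CPM in KO against 142, 142 and 149 CPM in WT (0.32 ± 0.05, adjusted p = 0.00534). Of the tryptophan enzymes Ido2 rose, with 7.10, 4.62 and 5.45 CPM in KO against 1.91, 2.40 and 1.89 CPM in WT (1.48 ± 0.20). It was 1 of 8 tested, whose median was -0.19. Apoc1, a small apolipoprotein, averaged 2.43 ± 0.304 CPM in KO and 0.699 ± 0.207 CPM in WT.

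The genes that fell did so by smaller factors and came from many classes. Lypd1, a membrane protein that modulates nicotinic receptors (chromosome 1, 125867622 to 125913101), had 95.7, 101 and 93.5 CPM in KO against 128, 139 and 135 CPM in WT (-0.47 ± 0.06, adjusted p = 4.73e-04). Syt2, a calcium sensor of fast transmitter release (chromosome 1, 134646677 to 134762593), had 22.7, 19.5 and 22.1 CPM in KO against 41.2, 33.8 and 29.1 CPM in WT (-0.69 ± 0.12, adjusted p = 0.00830). Zfhx2, a homeobox gene, had 91.1, 88.9 and 92.8 CPM in KO against 122, 124 and 123 CPM in WT (-0.43 ± 0.07, adjusted p = 0.00541). With St3gal1, a sialyltransferase, these were the 4 lower genes that passed without any single library. Over all tested genes 0.159% fell and 1.09% rose. Syt2 was the 1 member called of 47 genes of synaptic vesicles and scaffolds, whose median was 0.06. Grik3, a kainate receptor subunit, fell as 1 of 38 subunits of glutamate and GABA receptors, with 56.9, 55.2 and 54.1 CPM in KO against 89.8, 72.8 and 69.6 CPM in WT (-0.48 ± 0.11, adjusted p = 0.0474), and this call ended without any 1 of the 6 libraries.

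Among lipid genes 3 fell and Apoc1 rose, of 41 tested, where 0.159% of all tested genes fell and 1.09% rose. The list median was -0.03. Cd36, a scavenger receptor that takes up fatty acids, averaged 0.557 ± 0.119 CPM in KO and 1.46 ± 0.375 CPM in WT. Alox12b and Alox8, lipoxygenases of the epidermis that lie side by side on chromosome 11, averaged 3.96 ± 0.408 and 3.33 ± 0.324 CPM in KO, against 6.50 ± 0.491 and 5.59 ± 0.641 CPM in WT. The call of Alox12b ended without any 1 of the 6 libraries, that of Alox8 without 4 of them (KO libraries 1 and 3, WT libraries 1 and 3) and that of Cd36 without 3 (KO libraries 1 and 3, WT library 3), with adjusted p up to 0.187, 0.111 and 0.136 over the alternatives. Mcm6, a subunit of the replicative helicase, had 8.50, 7.12 and 9.34 CPM in KO against 13.9, 12.8 and 15.4 CPM in WT (-0.75 ± 0.13, adjusted p = 0.00876). It was the 1 gene called of 41 for DNA replication and repair, where 30 had a negative value and the median was -0.12. The call of Mcm6 ended without KO library 1 or WT library 3 (adjusted p up to 0.0696).

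Noncoding RNAs and neighbouring genes were among the rises. By annotation 22 of 405 tested lincRNAs (5.43%) and 8 of 395 antisense RNAs (2.03%) rose, against 136 of 14464 protein-coding genes (0.940%). Within 100 kb of each other lay 18 pairs of called genes, formed by 30 genes, and in 16 pairs both moved the same way. Of all possible pairs of called genes 77.6% moved the same way, since most calls were higher, so nothing particular to neighbours is read from that count. The lincRNA 3300002P13Rik and Cacng6 are transcribed away from each other from starts that the annotation sets 749 bases apart. 3300002P13Rik had 11.1, 10.5 and 10.5 CPM in KO against 2.59, 2.71 and 2.23 CPM in WT (2.09 ± 0.17, adjusted p = 8.38e-06), so both partners stood apart by genotype in every library. The promoter windows of the pair are shown because the genes rose together. RefSeq sets the start of Cacng6 467 bases downstream of the GENCODE start used for that distance, so the printed Cacng6 window does not hold the GENCODE start. Neither holds CACGTG or TTCCCGC, so the letters are all in lower case.

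3300002P13Rik (chr7:3423396-3423695, minus strand): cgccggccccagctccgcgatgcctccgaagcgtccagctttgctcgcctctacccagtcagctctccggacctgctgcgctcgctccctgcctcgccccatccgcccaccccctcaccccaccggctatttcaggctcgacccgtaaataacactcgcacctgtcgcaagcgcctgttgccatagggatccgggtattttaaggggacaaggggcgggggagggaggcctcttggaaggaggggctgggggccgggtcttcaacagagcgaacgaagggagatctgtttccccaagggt
Cacng6 (chr7:3424412-3424711, plus strand): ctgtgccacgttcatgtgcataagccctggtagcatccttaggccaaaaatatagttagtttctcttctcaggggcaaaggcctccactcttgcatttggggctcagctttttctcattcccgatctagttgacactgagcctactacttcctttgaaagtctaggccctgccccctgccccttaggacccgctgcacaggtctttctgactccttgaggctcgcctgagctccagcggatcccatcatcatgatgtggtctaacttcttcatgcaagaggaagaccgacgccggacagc

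The lincRNAs Gm28286 and A830008E24Rik, 3295 bases apart on chromosome 1, also rose as neighbours. Gm28286 averaged 1.21 ± 0.00917 CPM in KO and 0.0930 ± 0.0368 CPM in WT, and A830008E24Rik 3.24 ± 0.330 CPM in KO and 0.305 ± 0.118 CPM in WT. On chromosome 9 the pseudogene Fbxw23, the pseudogene Gm43089 and the antisense RNA Gm42756 lie next to or over each other and all rose, so that their reads may not be fully separable. The neighbours Parvb and Parvg lie 8337 bases apart on the same strand.

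In 2 pairs the genes moved in opposite directions, and in both an antisense RNA rose over a coding gene that fell. Zfhx2os, antisense to Zfhx2 on chromosome 14, had 11.0, 11.4 and 11.2 CPM in KO against 5.61, 5.16 and 5.08 CPM in WT (1.08 ± 0.11, adjusted p = 8.66e-05), where Zfhx2 itself fell. Gm37885, antisense to Capn2 on chromosome 1, averaged 17.2 ± 1.83 CPM in KO and 9.72 ± 0.616 CPM in WT (0.83 ± 0.11). Capn2, a calcium-dependent protease, had 65.9, 63.2 and 67.8 CPM in KO against 85.8, 84.0 and 79.4 CPM in WT (-0.34 ± 0.06, adjusted p = 0.00836). In the 4 genes the genotypes did not overlap. The call of Capn2 ended without KO library 1, KO library 2 or WT library 1. Across all called genes with a tested partner on the opposite strand, 42 of 50 partners were not called and had a median of 0.01. The called partners came from 4 pairs in which both genes were called, so each gene of such a pair counts as a partner of the other. Over all tested genes 1.24% were called, and the partners are described only. The libraries were stranded, but no source used here says whether the counting used strand, so reads of a gene and its antisense partner may be mixed.

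Most pathways set beside the germline genes had no or 1 called member. Of 24 pathway lists with 775 tested members, 27 entries were higher and 6 lower, and 9 lists had none. Over all tested genes 1.09% were higher and 0.159% lower. The germline lists are among the 24 and held 11 of the higher entries, and the muscle list held 6. None of 32 regulators of H3K4 methylation was called by edgeR or DESeq2 (median 0.01, 1 at an unadjusted p under 0.05): Kdm5a, an autosomal relative, had 66.4, 68.0 and 61.4 CPM in KO against 58.3, 56.4 and 62.1 CPM in WT, and Kdm5d, the relative on the Y chromosome, 35.5, 34.8 and 38.5 CPM in KO against 35.3, 34.6 and 31.9 CPM in WT. Nor was any of 34 genes of PRC1.6, H3K9 methylation and DNA methylation (median 0.00, 2 at an unadjusted p under 0.05). Clustered protocadherins (53 tested), axon guidance and adhesion genes (62), and activity-regulated late genes (29) had no called member by edgeR and medians of 0.03, 0.02 and 0.04. At an unadjusted p under 0.05 stood 8, 7 and 6 of them, and DESeq2 called 1 protocadherin higher and 2 axon guidance genes lower.

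Immediate early genes, which neurons switch on within minutes of activity, had the highest median of these lists, 0.34, with 33 of 38 positive and none called by edgeR, 14 of them higher at an unadjusted p under 0.05. Arc, a regulator of synaptic strength, had 307, 146 and 275 CPM in KO against 73.1, 205 and 144 CPM in WT, and Fos averaged 22.2 ± 6.65 CPM in KO and 13.6 ± 8.81 CPM in WT. For both genes KO library 2 lay within the WT range and WT library 1 below all others. DESeq2 called 2 members of the list higher, as did edgeR in the fit of the 6 untreated libraries alone, and without a filter on low counts edgeR called 12. Interferon and antigen presentation genes had 28 of 36 negative values and a median of -0.11, with none called by edgeR or DESeq2 and 3 lower at an unadjusted p under 0.05.

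**Figure D4:**
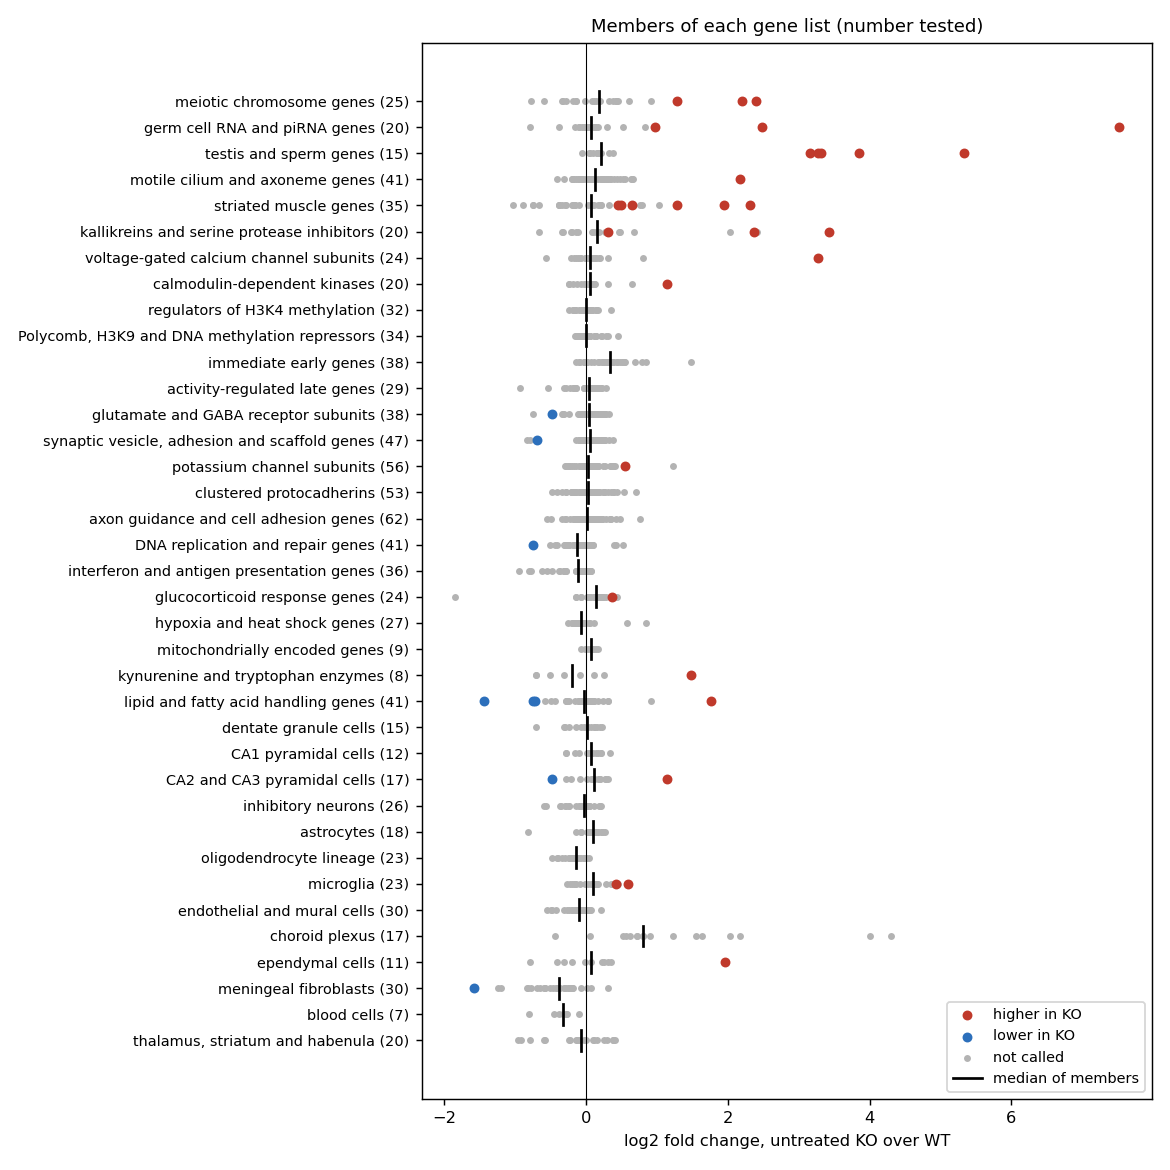
Log2 fold change of untreated KO over WT (horizontal axis) for the tested members of each gene list (1 row a list, number tested in brackets), with called members in red or blue and the list's median as a black bar. The medians of most lists lie near 0, and the called members with the largest rises, D1Pas1 and Naa11, are in the germline lists.

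The tissue label was checked on markers. Dentate granule cells, CA1 and the CA2 and CA3 fields had mean levels of 5.71 to 5.86, 5.69 to 5.92 and 4.70 to 4.89 log2 CPM over the 6 libraries, so markers of all 3 fields were read in every library, and their list medians were 0.02, 0.08 and 0.12. Of 254 tested entries in 14 marker lists, 4 were higher and 2 lower, where the shares over all tested genes were 1.09% and 0.159%. Map3k15, a kinase enriched in CA2, rose with 12.1, 8.97 and 8.69 CPM in KO against 4.07, 4.45 and 4.87 CPM in WT (1.15 ± 0.17, adjusted p = 0.00229), and Ccdc3 of the same list fell. Siglech and Fcrls, both of microglia, rose by 0.60 ± 0.10 and 0.43 ± 0.08 among 23 markers with a median of 0.10. The other markers went either way without a call. Cd68 stood at 0.45 ± 0.14, while Tyrobp, C1qb and Cx3cr1 stood at -0.27 ± 0.10, -0.22 ± 0.09 and -0.20 ± 0.08, each without overlap between the groups. Microglial markers as a whole averaged 4.41 to 4.52 log2 CPM in KO libraries and 4.36 to 4.38 in WT libraries. The Siglech call ended without KO library 1, WT library 1 or WT library 2, and that of Fcrls without any of 5 libraries, KO library 2 being the exception. Astrocyte, inhibitory neuron, oligodendrocyte and endothelial markers had no called member by edgeR and medians of 0.10, -0.03, -0.14 and -0.10. At an unadjusted p under 0.05 stood 5, 5, 6 and 2 of them, and DESeq2 called 2 inhibitory neuron markers and 1 oligodendrocyte marker lower.

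Tissue at the border of the hippocampus differed between libraries. Ttr, the main product of the choroid plexus, had 38.3, 544 and 23.6 CPM in KO against 7.77, 14.4 and 14.9 CPM in WT (4.00 ± 1.01, adjusted p = 0.0923). None of 17 choroid plexus markers was called by edgeR, 9 were higher at an unadjusted p under 0.05, and DESeq2 called 2 higher; without a filter on low counts edgeR called 11. The list median was 0.81, by DESeq2 1.16, and without KO library 2 it was 0.24. Meningeal fibroblast markers had a median of -0.38, with 27 of 30 negative, and a mean level of 3.02, 2.26 and 3.22 log2 CPM in KO against 3.33, 3.72 and 2.95 log2 CPM in WT. Ogn, a small proteoglycan and a marker on that list, had 3.63, 2.73 and 4.97 CPM in KO against 13.3, 13.5 and 7.39 CPM in WT (-1.57 ± 0.35, adjusted p = 0.0475). Its lowest KO and its highest WT value were in the libraries where the meningeal list was lowest and highest, and the part of meningeal tissue in its fall was not tested. The Ogn call ended without any of 5 libraries, WT library 3 being the exception (adjusted p up to 0.227 over the alternatives). Without KO library 2 the count of all higher genes was 139, of which 136 were among the 178, and Tex14, Cacng6, Klk10, Dnah1 and Tnxb were still called.

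The same genotypes after novelty came from other libraries and the same fit. Of the 178 genes higher at rest 177 had the same sign after novelty, and of the 26 lower genes 25 had the same sign. After novelty 140 of the 178 were called higher and 4 of the 26 were called lower (1.34% of all genes were called there in either direction). Some effects were smaller after novelty: Fhod3, a formin that assembles actin filaments, stood at -0.78 at rest and at 0.00 ± 0.17 after novelty, Cd36 at -1.43 and -0.25 ± 0.27, and Gm14486 at 4.91 and 2.09 ± 0.60, each on the log2 scale. Gm14486 was close to 0 in WT at rest, so its fitted value there depends on the prior count. Cacng6 after novelty had 23.4, 23.9 and 24.2 CPM in KO against 2.95, 2.78 and 2.42 CPM in WT. The test of the difference in genotype effect between novelty and rest called no gene by edgeR or by DESeq2, with 563 genes at an unadjusted p under 0.05. Without a filter on low counts it called 8.

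In the inducible line 76 of the 165 tested higher genes were also higher in ifKO (0.616% of all genes were) and none was lower, while 3 of the 26 lower genes were lower (0.0288%). The lines differ in strain background, read type and flowcell, so the cause of a difference between them cannot be told apart. Cacng6 in the inducible line had 11.7, 13.8 and 12.7 CPM in ifKO against 1.45, 0.965 and 1.15 CPM in control, and Dnah1 44.7, 50.0 and 48.1 CPM in ifKO against 11.3, 12.9 and 11.6 CPM in control. For these genes the constitutive effect minus the inducible effect was -0.14 ± 0.16 and 0.18 ± 0.13 (adjusted p = 1.00 for each). Tex14 had 0.488, 0.468 and 0.359 CPM in ifKO against 0.570, 0.590 and 0.430 CPM in control, and its effects differed by 4.11 ± 0.29 (adjusted p = 3.10e-07). Ddx4 had 5.09, 5.18 and 4.26 CPM in ifKO against 5.39, 5.31 and 5.86 CPM in control, and its difference of 1.16 ± 0.25 was not called (adjusted p = 0.109). In all, 20 of 17508 genes differed in effect (0.114%), 19 of which were among the genes higher in constitutive KO.

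**Figure D5:**
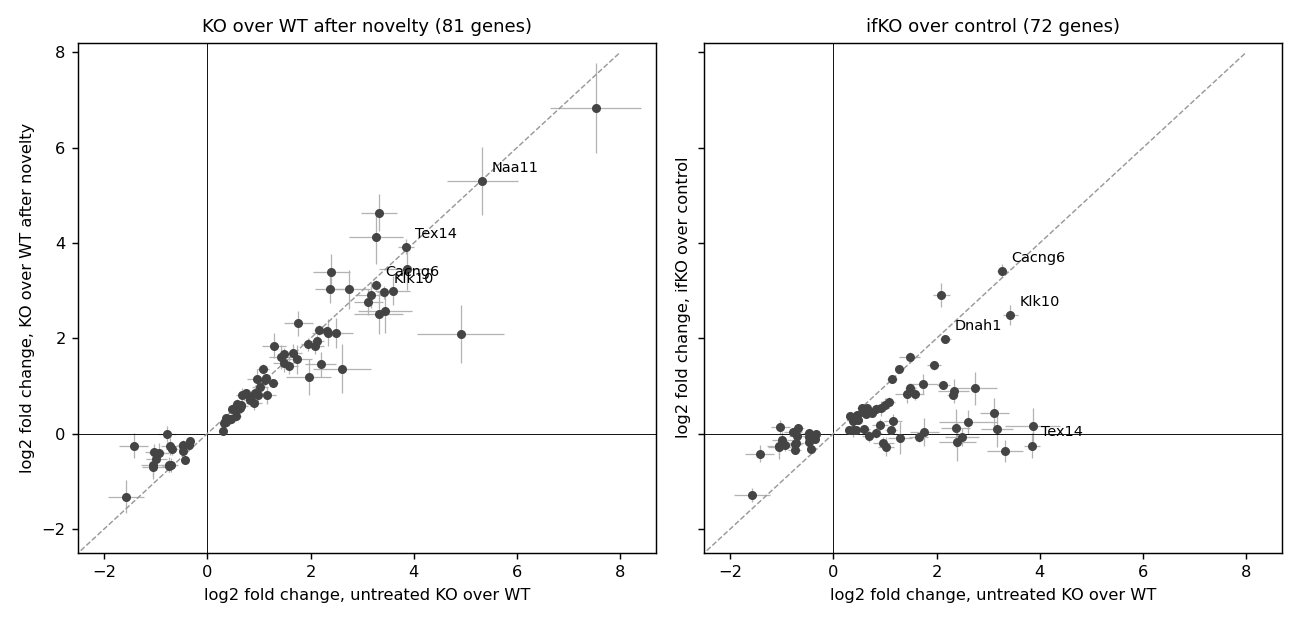
Log2 fold change of named called genes in untreated KO over WT (horizontal axes) against that of KO over WT after novelty (left, 81 genes) and that of ifKO over control (right, 72 genes), with SE as grey bars and the line of equal effects dashed. After novelty most rises lie near the line, with Gm14486 (4.91 at rest, 2.09 after novelty) and some falls away from it, while in the inducible line Cacng6 lies near it and Tex14 near 0.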

How the data were processed

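Raw counts per gene were deposited by the authors, 1 file a library, for 18 libraries of stranded mRNA. Per the labels' protocols the KO and WT libraries are single reads of 50 nt and those of the inducible line paired reads of 75 nt. The submitters' processing notes name the aligner STAR (2.5.0c), SAMtools (1.3), the counter HTSeq (0.6.1), DESeq2 and the build GRCm38. Neither the annotation release nor HTSeq's strand setting is given in the sources used here, and the extraction text speaks of cultures where the labels give hippocampal tissue. Of 47069 gene IDs 46574 were given a symbol and position from GENCODE M21, and 495 were not. Summary lines were left out: reads in no feature made up 14.7 to 17.2% and ambiguous reads 0.765 to 1.06%.

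The analysis used edgeR 4.0.16 in R 4.3.3. The 12 KO and WT libraries were fitted together with TMM scaling, filterByExpr (minimum count 10, minimum total 15), the quasi-likelihood test and Benjamini-Hochberg adjustment over all tested genes (threshold 0.05). A prior count of 0.125 entered the fitted fold changes. The difference from the inducible line was tested in 1 fit of all 18 libraries. The replicate numbers did not pair the libraries, since the deviations of same-numbered KO and WT libraries correlated at -0.10, -0.25 and -0.11.

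Named were Kdm5c, then, among called genes that reached 1 CPM in KO or WT and whose groups did not overlap, the 20 largest rises, the 12 largest falls and the 12 most abundant. Also named were called genes with at most 3 counts in WT, up to 4 called members per list and direction, and called genes within 100 kb of each other. One named gene is not reported here. Other list members, given to show a list's range, and the sialyltransferase St3gal1 were chosen after their values were seen. The lists, the comparison and its members were chosen with earlier results of these data known. Alternatives were DESeq2 1.42.0, RLE factors, other filters, a replicate block, offsets for GC content and length, fewer libraries in the fit, a fold threshold of 1.2 and leaving out each library. The methods were tested on simulated counts.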

Additional observations from a re-analysis of the deposited data

Results flagged for a closer look

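For 11 of the named genes the genotype effect differed between the constitutive and the inducible line by a test of the difference itself (edgeR, adjusted p under 0.05, all 18 libraries). In each the rise in constitutive KO was the larger. The constitutive effect minus the inducible effect, on the log2 scale, was 4.11 ± 0.29 for Tex14 and 2.56 ± 0.41 for Rnf17. It was 7.38 ± 1.25 for Naa11, 4.74 ± 0.84 for Stk31 and 3.99 ± 0.51 for Gm28286, which were too low to be tested in the inducible line alone, so that the size of these differences depends on the prior count.

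Among the neighbours of called genes the difference was 3.70 ± 0.44 for A830008E24Rik, which lies next to Gm28286, 3.08 ± 0.55 for Fbxw23 and 1.72 ± 0.22 for Gm42756. It was 2.70 ± 0.41 for 4930524B15Rik and 1.05 ± 0.14 for the abundant noncoding RNA 2900052N01Rik. Tnxb also rose in ifKO, by 1.03 ± 0.08, and differed by 1.11 ± 0.16. The lines differ in strain background, read type and flowcell as well as in the deletion, and these cannot be told apart.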

How the results depend on the processing

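None of the called genes changed sign under the alternatives tried, and Tex14, Cacng6, Klk10, Dnah1, Tnxb, Pnck and Zmynd8 passed the test under all of them. The counts moved more. At rest 204 genes were called (178 higher, 26 lower). DESeq2 called 49 lower, no filter on low counts 347 (81 lower), offsets for GC content and length 331 (80 lower), only the 6 untreated libraries 318 (58 lower), the fit without the 2 deviating novelty libraries 415 (323 higher, 92 lower) and a test against a fold change of 1.2 gave 122 (116 higher, 6 lower). With the replicate number as a block 173 were called (151 higher, 22 lower), 146 and 19 of them shared. Leaving out each untreated library in turn gave 121 to 149 called genes, 113 to 139 higher and 8 to 17 lower. The count fell by over 1.5 times without KO library 1 (121), WT library 1 (135) or WT library 2 (132), and for the lower genes without any of the 6. Past the threshold in every such fit were 99 higher and 4 lower genes.

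The difference from novelty called 0 genes, 8 without a filter on low counts, 0 with the replicate block and 0 without any single library. The difference from the inducible line called 20 genes, 44 by DESeq2, 83 without a filter, 23 with the replicate block and 18 to 23 without any single library. Depth limits the low genes: the shallowest library had 16 M counts, and 0 counts there leave a level of 3 counts possible.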

Other observations

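Other rises, chosen after their values were seen, came from genes better known from eye, epithelium and connective tissue. Sag, the visual arrestin, averaged 5.54 ± 0.327 CPM in KO and 2.65 ± 0.323 CPM in WT (SD, n = 3 each), Rlbp1, a retinal-binding protein of the eye, 26.3 ± 1.59 CPM in KO and 15.5 ± 0.958 CPM in WT, and Crybb1, a lens crystallin, 6.75 ± 0.346 CPM in KO and 2.54 ± 0.142 CPM in WT. Stra6, the cellular receptor for retinol-binding protein, had 33.7, 34.5 and 34.7 CPM in KO against 15.9, 20.6 and 17.4 CPM in WT (log2 fold change 0.93 ± 0.09, edgeR adjusted p = 7.54e-05). Of epithelial keratins Krt9 averaged 25.4 ± 0.452 CPM in KO and 10.9 ± 0.673 CPM in WT (1.21 ± 0.09, adjusted p = 7.12e-06) and Krt1 6.57 ± 1.01 CPM in KO and 2.72 ± 0.350 CPM in WT.

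Of matrix genes, Col22a1, a collagen of tissue junctions, averaged 25.2 ± 2.88 CPM in KO and 6.78 ± 0.219 CPM in WT (1.90 ± 0.10, adjusted p = 2.13e-07), Mfap4, a microfibril protein, 7.93 ± 1.35 CPM in KO and 3.18 ± 0.676 CPM in WT, and Adamtsl2, which binds fibrillin, 14.1 ± 1.71 CPM in KO and 5.26 ± 0.520 CPM in WT. Col9a3, a cartilage collagen that overlaps the rising Tcfl5, averaged 29.7 ± 4.91 CPM in KO and 14.6 ± 3.68 CPM in WT. Jsrp1, a protein of the junction where muscle releases calcium, averaged 5.60 ± 0.724 CPM in KO and 1.73 ± 0.496 CPM in WT. No list of eye, keratin or matrix genes was counted, so these genes are values and stand for no class.

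The largest fitted falls lay under 1 CPM. Cps1, the entry enzyme of the urea cycle, averaged 0.0712 ± 0.0325 CPM in KO and 0.435 ± 0.142 CPM in WT (-2.51 ± 0.46, adjusted p = 0.0141), and Sp7, a transcription factor of bone cells, 0.189 ± 0.108 CPM in KO and 0.866 ± 0.384 CPM in WT (-2.06 ± 0.42, adjusted p = 0.0293).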
